A study of Anopheles merus and Anopheles coluzzii with 36 samples.

Results

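Serpins are protease inhibitors, and the 10 genes described here are the mosquito serpins SRPN1 to SRPN10. They were chosen by a fixed list of gene identifiers, and 10 of the 10 were present among the 10905 genes of the expression table. The list gives the names in the order SRPN1 (AGAP006909), SRPN2 (AGAP006911), SRPN3 (AGAP006910), SRPN4 (AGAP009670), SRPN5 (AGAP009221), SRPN6 (AGAP009212), SRPN7 (AGAP007693), SRPN8 (AGAP003194), SRPN9 (AGAP003139) and SRPN10 (AGAP005246). The table itself pairs identifiers with no names, so these names rest on the list alone.

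The study set larvae of a salt-tolerant malaria mosquito, Anopheles merus, beside those of a freshwater relative, Anopheles coluzzii. Pools of 35 to 50 whole larvae were raised in fresh water to 18 h after hatching and then kept for 6 h in water with 0, 10, 20, 30, 40 or 50% of the salinity of seawater. Each combination of species and salinity had 3 pools, making 12 groups and 36 poly(A) RNA libraries, and the 0% pools of each species are the controls. The labels separate the groups by species and salinity alone and name no strain, and whether pools of 1 group had separate cultures behind them is not stated, so p-values measure pool-to-pool spread alone.

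A serpin presents a loop that a target protease cuts, and the cut traps the protease in an inactive complex. In insects, serpins of this kind hold back the cascades of serine proteases in the blood that end in melanization, the deposition of dark pigment on wounds and invaders, and in Toll signalling. In Anopheles gambiae, a close relative of both species here, SRPN2 is known as a brake on melanization, SRPN6 as a gene induced in the midgut by malaria parasites, and SRPN10 as an intracellular serpin that marks midgut cells invaded by them.

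The 18 An. merus libraries held between 9174563 and 24092192 reads, the 18 An. coluzzii libraries between 15369828 and 24835904. All members had reads in every library, from 54 to 14177. Levels are in CPM, reads per gene scaled to library size, with the authors' scaling between libraries, and since they are not divided by gene length they are compared between samples only, never between genes. Pools of whole larvae cannot tell fewer cells of a type from less RNA per cell. With no other names for the identifiers, the larval label was not checked against marker genes. The 3 pools at 0% stood further apart than those of most other groups, with a median SD over all genes of 0.23 log2 units in An. merus at 0% and 0.17 in An. coluzzii at 0%, against 0.10 to 0.17 in the other 10 groups. The sources used here do not say how reads that fit several similar genes were counted, so levels of closely similar serpins are uncertain to that extent.

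**Figure D1:**
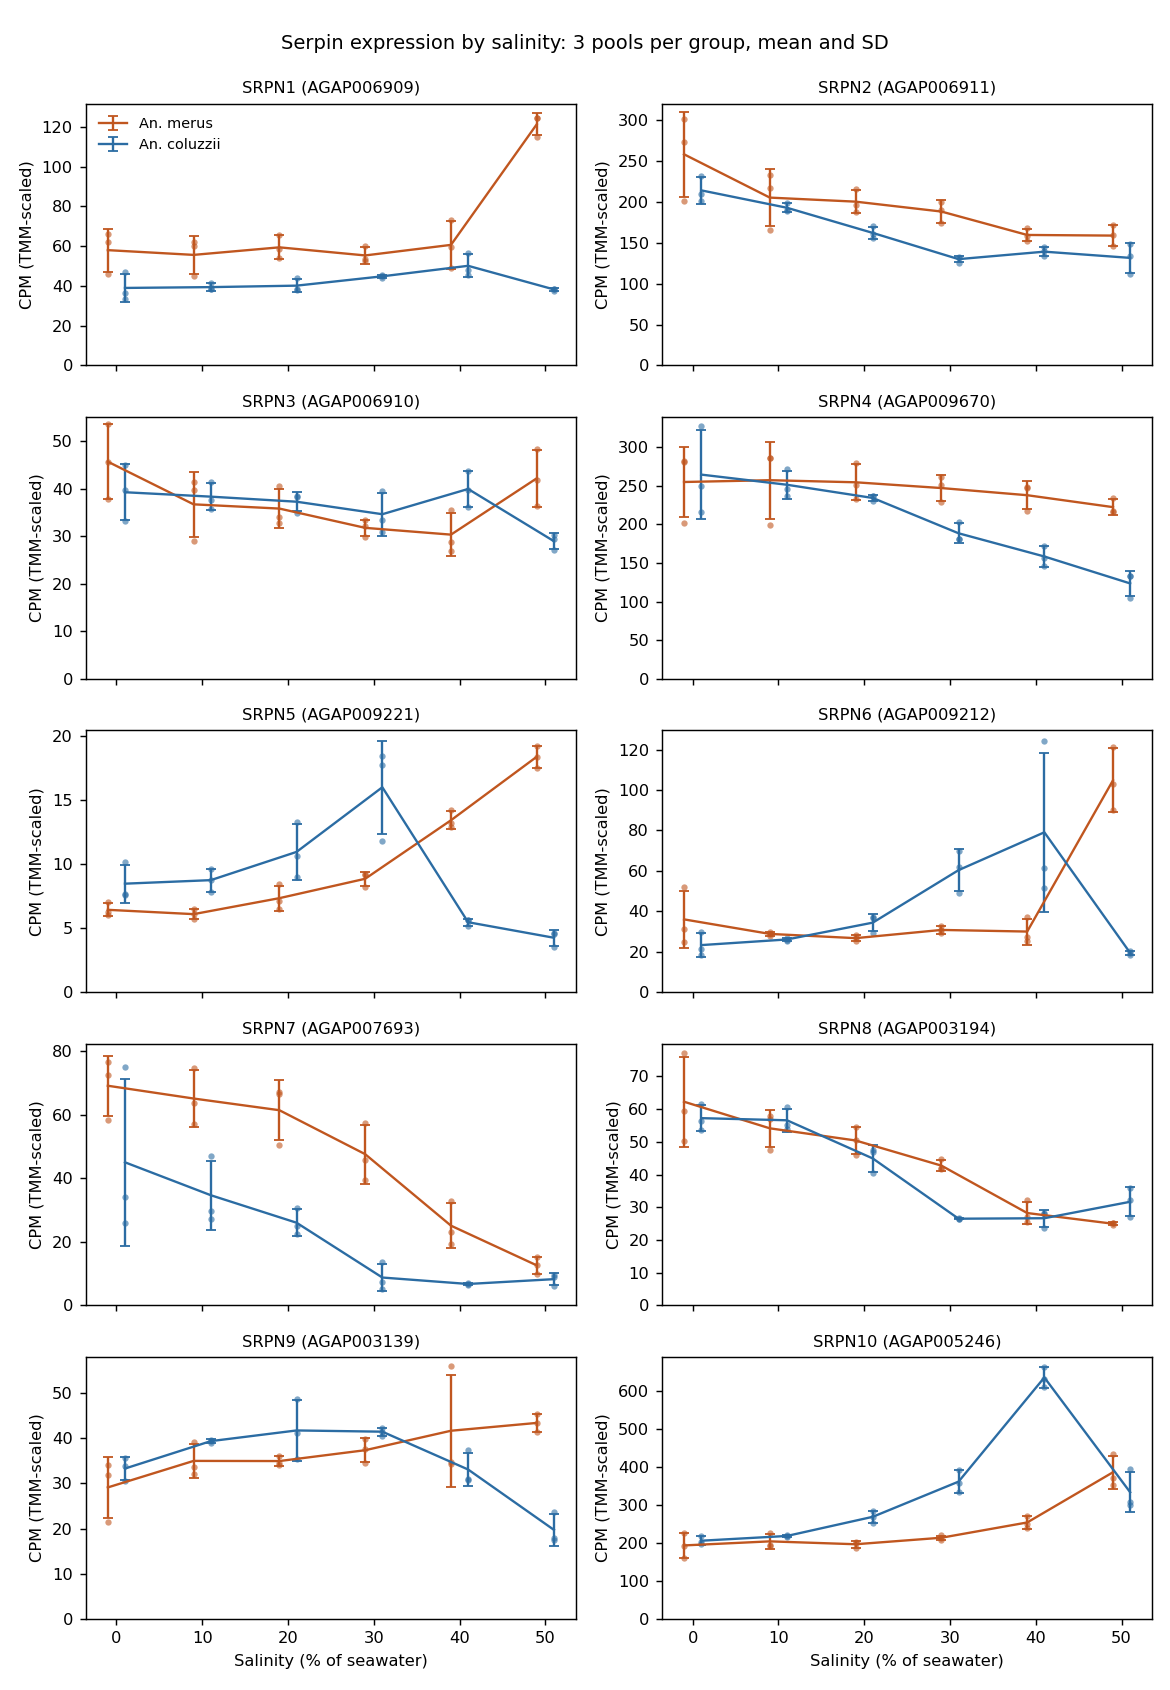
Level of each serpin (CPM, vertical axis, starting at 0) by salinity (% of seawater), An. merus in orange and An. coluzzii in blue, offset sideways for legibility. Points are the 3 pools of a group and lines join the means with SD bars. SRPN1 and SRPN6 reach 121 and 105 CPM at 50% in An. merus after little change up to 40%, and SRPN10 peaks at 635 CPM at 40% in An. coluzzii.

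Each salinity was set against 0% within its species to ask which serpins responded. At 50%, 8 of 10 serpins differed from 0% in An. merus, 5 higher (SRPN1, SRPN5, SRPN6, SRPN9 and SRPN10) and 3 lower (SRPN2, SRPN7 and SRPN8), where 69.6% of all genes were called, 31.9% higher and 37.7% lower. In An. coluzzii at 50% the number was also 8 of 10, but 1 was higher (SRPN10) and 7 were lower (SRPN2, SRPN3, SRPN4, SRPN5, SRPN7, SRPN8 and SRPN9), where 68.0% of all genes were called, 31.7% higher and 36.3% lower. Taking both directions together, the share of serpins called was near the background in both species. The median log2 change of the serpins at 50% was 0.24 for An. merus and -0.73 for An. coluzzii, beside -0.06 over all genes in each. Calls were made with limma on log2(CPM + 0.5) at a Benjamini-Hochberg adjusted p under 0.05 over all 10905 genes, all comparisons with 0% in a species share the same 3 pools, and fold changes refer to CPM + 0.5, which makes those of low genes look smaller.

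Fewer serpins were called at 30% and below. In An. merus the number at 10, 20, 30 and 40% was 0, 0, 4 and 7, beside 0.798, 11.8, 19.4 and 39.3% of all genes. In An. coluzzii it was 0, 2, 7 and 8, beside 0.0550, 15.3, 50.2 and 65.6% of all genes. At 10% an unadjusted limma p under 0.05 was reached by 2 serpins in An. merus (SRPN2 and SRPN3) and by 0 in An. coluzzii, and edgeR and DESeq2 called 0 in either species. At 20% in An. merus 3 serpins (SRPN2, SRPN3 and SRPN8) had an unadjusted p under 0.05, edgeR called 0 and DESeq2 called 1. In An. coluzzii at 20%, 6 serpins had an unadjusted p under 0.05, edgeR called 3 and DESeq2 called 4. Among these, SRPN7 was called lower with DESeq2 (-0.79). SRPN5 was called higher there with quantile normalization (0.44). Single libraries decided some of these counts. In An. merus the 10% count was 1 without replicate B at 0%, the 20% count was 3 without replicate B at 0% and 1 without replicate C at 20%, and leaving out replicate A at 0% gave a 30% count of 0 and leaving out replicate B at 30% a count of 1. In An. coluzzii the 20% count was 5 without replicate B at 0%, 1 without replicate D at 0% or A at 20%, and 0 without replicate A at 0% or C at 20%.

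**Figure D2:**
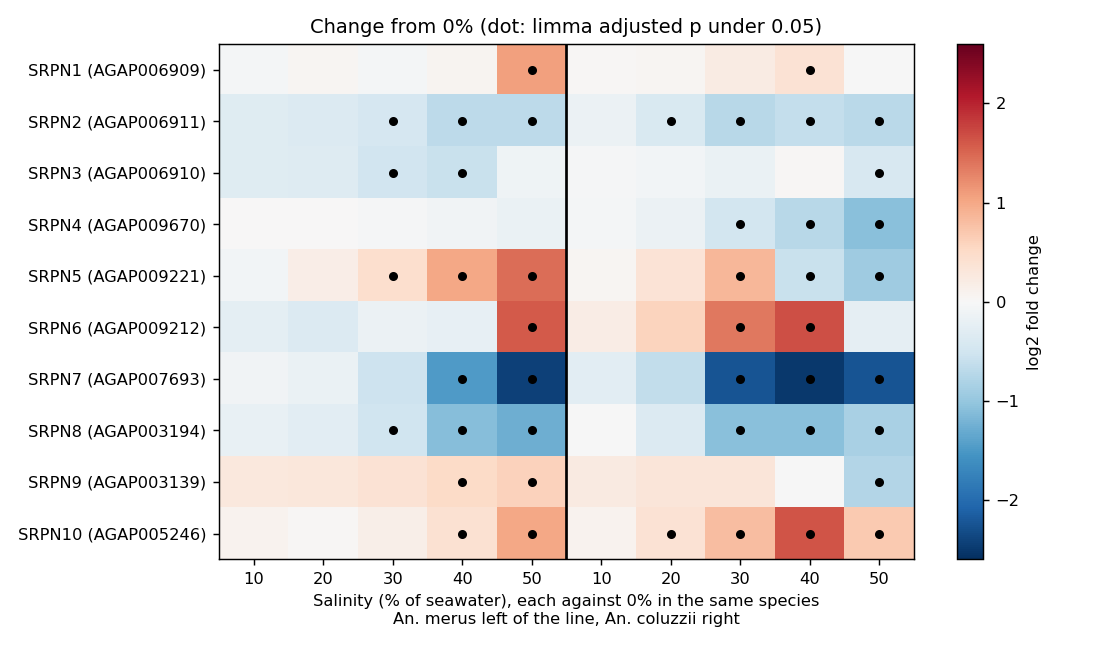
Log2 fold change of each serpin (rows) at 10 to 50% salinity against 0%, An. merus in the left 5 columns and An. coluzzii in the right 5, red for higher and blue for lower, with a dot where the limma adjusted p is under 0.05. SRPN7 stands at -2.42 (An. merus) and -2.25 (An. coluzzii) at 50%, and the SRPN5 row is red at 30% and blue at 40 and 50% in An. coluzzii.

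SRPN2, SRPN7 and SRPN8 fell with salinity in both species. For SRPN2, the brake on melanization, the An. merus pools measured 146, 159 and 172 CPM at 50% and 302, 201 and 273 CPM at 0%, and the groups did not overlap. The log2 fold change was -0.68 ± 0.12 (SE, limma adjusted p = 1.2e-05). The An. coluzzii pools measured 148, 112 and 134 CPM at 50% and 210.0, 201 and 232 CPM at 0%, again with no overlap, and the log2 fold change was -0.71 ± 0.12 (SE, limma adjusted p = 8.3e-06). In An. merus SRPN2 averaged 205 ± 34.8, 201 ± 14.2, 188 ± 13.6 and 160 ± 7.90 CPM at 10, 20, 30 and 40%, and in An. coluzzii 193 ± 5.63, 162 ± 7.63, 130.1 ± 3.72 and 139 ± 5.58 CPM (SD, n = 3). A test of the difference in response gave 0.28 ± 0.17 at 30%, -0.05 ± 0.17 at 40% and 0.03 ± 0.17 at 50% (SE), none past the threshold, and at 50% the 95% interval ran from -0.32 to 0.37. The difference at 30% was called with quantile normalization (0.48) and under scaling by library totals (0.47). In the main fit the first calls for SRPN2 were at 30% in An. merus and at 20% in An. coluzzii. That in An. merus was lost without replicate A at 0% (log2 fold change -0.32) or B at 30% (-0.38) and with each species fitted alone (-0.44), that in An. coluzzii without replicate A (-0.41) or D (-0.34) at 0% or A (-0.39) or C (-0.37) at 20%. Some alternatives called SRPN2 lower in An. merus before 30%. At 20% these were the 5 CPM filter (-0.35), quantile normalization (-0.31), DESeq2 (-0.33) and leaving out replicate B at 0% (-0.52) or C at 20% (-0.40). At 10% it was called without replicate B at 0% (-0.50).

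SRPN7 had the largest falls among the 10. In An. merus its pools measured 76.5, 58.4 and 72.3 CPM at 0%, 57.5, 39.3 and 45.9 CPM at 30%, 23.0, 32.9 and 19.3 CPM at 40% and 12.7, 15.2 and 9.89 CPM at 50%. In An. coluzzii they measured 34.0, 26.04 and 74.9 CPM at 0%, 25.0, 22.4 and 30.6 CPM at 20%, 5.27, 7.42 and 13.6 CPM at 30%, 6.94, 6.55 and 6.74 CPM at 40% and 9.72, 6.02 and 9.04 CPM at 50%. In An. merus the pools at 30, 40 and 50% lay in 3 separate bands, each below the one before, while in An. coluzzii the pools at 30% already overlapped those at 40 and 50%. The An. merus changes at 30% against 0% and at 40% against 30% (-0.93 log2 units) were called neither in the main fit nor in any alternative. At 50% the log2 fold change was -2.42 ± 0.30 in An. merus (SE, limma adjusted p = 4.4e-08) and -2.25 ± 0.30 in An. coluzzii (SE, limma adjusted p = 1.7e-07). Replicate D of An. coluzzii at 0% stood above the other 2 pools, and without it the log2 fold changes in that species were -1.81 at 30%, -2.06 at 40% and -1.82 at 50%, all still called.

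SRPN8 measured 24.4, 25.2 and 25.3 CPM at 50% in An. merus, against 77.3, 50.2 and 59.4 CPM at 0%, a change of -1.28 ± 0.12 log2 units (SE, limma adjusted p = 4.6e-10). In An. coluzzii it measured 35.9, 27.1 and 32.1 CPM at 50%, against 56.4, 53.7 and 61.6 CPM at 0% (log2 fold change -0.85 ± 0.12 SE, limma adjusted p = 6.9e-07). In neither species did the groups overlap. Its lowest mean in An. coluzzii came at 30%, where the 3 pools were 26.4, 26.5 and 26.6 CPM, while in An. merus the 30% pools were 44.7, 41.9 and 41.6 CPM. The call in An. merus at 30% (log2 fold change -0.52 ± 0.12 SE) was lost without replicate A at 0% (-0.35). In An. coluzzii at 20% SRPN8 just missed the threshold (-0.35 ± 0.12 SE, limma adjusted p = 0.051) and was called lower with 8 of the other settings, edgeR and DESeq2 among them.

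SRPN6, the serpin induced by parasites in An. gambiae, rose in both species, at different salinities. In An. merus its mean stayed between 26.7 ± 1.52 and 35.96 ± 14.2 CPM from 0 to 40% (SD, n = 3), and at 50% the pools measured 90.0, 121 and 103 CPM, against 31.1, 24.9 and 51.9 CPM at 0%. The log2 fold change at 50% was 1.59 ± 0.23 (SE, limma adjusted p = 8.4e-07), a 3.01-fold rise, and the groups did not overlap. In An. coluzzii the pools measured 21.4, 30.0 and 18.4 CPM at 0%, 36.7, 29.4 and 37.0 CPM at 20%, 69.8, 49.3 and 61.9 CPM at 30% and 124, 51.5 and 61.5 CPM at 40%. The rise was called at 30% (1.37 ± 0.23 log2 units, SE, limma adjusted p = 1.9e-05) and at 40% (1.67 ± 0.23 SE, limma adjusted p = 4.9e-07, and 1.29 without replicate B at 40%). At 50% the An. coluzzii pools measured 20.4, 19.5 and 18.3 CPM and overlapped those at 0% (log2 fold change -0.23 ± 0.23 SE, 95% interval -0.70 to 0.25).

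SRPN10, the intracellular serpin, also rose in both. In An. merus its pools measured 352, 435 and 371 CPM at 50%, against 192, 161 and 226 CPM at 0%, a 2.01-fold rise with no overlap (SE of the log2 change 0.11, limma adjusted p = 2.7e-09). It was also called at 40% (0.40 ± 0.11 SE, limma adjusted p = 0.0032), where it averaged 254 ± 16.4 CPM (SD, n = 3). In An. coluzzii its mean was 206 ± 11.2, 218 ± 2.64, 268 ± 15.6, 361 ± 29.6, 635 ± 26.5 and 333 ± 52.5 CPM at 0, 10, 20, 30, 40 and 50% (SD, n = 3). The 40% pools, at 611, 632 and 663 CPM, stood above all other An. coluzzii pools. Against 0%, the log2 fold change was 1.63 ± 0.11 at 40% (SE, limma adjusted p = 2.7e-13) and 0.69 ± 0.11 at 50% (SE, limma adjusted p = 2.1e-06). The rise was called from 20% on, where the log2 fold change was 0.38 ± 0.11 (SE), a call lost without replicate A at 0% (0.35) or C at 20% (0.34).

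SRPN1, SRPN5 and SRPN9 were higher in An. merus at 50% than at 0%, and SRPN5 and SRPN9 were lower in An. coluzzii at 50% than at 0%. SRPN1 measured 115, 125 and 125 CPM at 50% in An. merus, against 66.0, 45.7 and 62.2 CPM at 0%, with means of 55.3 to 60.6 CPM from 10 to 40%. Its log2 fold change at 50% was 1.08 ± 0.14 (SE, limma adjusted p = 1.2e-07). In An. coluzzii it measured 38.5, 37.5 and 38.6 CPM at 50%, against 33.4, 36.6 and 46.9 CPM at 0%, so the groups overlapped and the log2 fold change was -0.01 ± 0.14 (SE, 95% interval -0.30 to 0.27). The call for SRPN1 in An. coluzzii at 40% (0.37 ± 0.14 SE, limma adjusted p = 0.023) was lost without replicate A (0.27) or B (0.33) at 0% or B at 40% (0.28), with quantile normalization (0.30) and with library totals as the scaling (0.07).

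SRPN5 rose in An. merus at 30, 40 and 50%, with means of 6.41 ± 0.520, 6.08 ± 0.383, 7.32 ± 0.977, 8.83 ± 0.529, 13.4 ± 0.705 and 18.3 ± 0.863 CPM at 0, 10, 20, 30, 40 and 50% (SD, n = 3). The log2 fold change against 0% was 1.45 ± 0.15 at 50% (SE, limma adjusted p = 1.2e-09), a 2.73-fold rise with no overlap between pools. In An. coluzzii the means were 8.45 ± 1.49, 8.73 ± 0.901, 10.9 ± 2.16, 16.0 ± 3.62, 5.45 ± 0.284 and 4.24 ± 0.619 CPM at the same salinities (SD, n = 3). There SRPN5 was higher than at 0% at 30% (0.87 ± 0.15 log2 units, SE, limma adjusted p = 1.7e-05) and lower at 40% (-0.58 ± 0.15 SE, limma adjusted p = 0.0010) and 50% (-0.91 ± 0.15 SE, limma adjusted p = 3.6e-06). The 30% pools of An. coluzzii were uneven, at 18.4, 17.7 and 11.8 CPM, yet none overlapped the 0% pools at 7.61, 10.2 and 7.57 CPM. In An. merus the call at 30% (0.43 ± 0.15 SE) was lost with library totals as the scaling (0.46) and without any of 5 libraries, namely replicates A (0.42) and B (0.39) at 0% and A (0.48), B (0.41) and C (0.41) at 30%.

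SRPN9 measured 45.4, 41.5 and 43.4 CPM at 50% in An. merus, against 34.0, 21.4 and 31.9 CPM at 0% (0.59 ± 0.16 log2 units, SE, limma adjusted p = 0.0014, with 0.39 without replicate B at 0%). In An. coluzzii it measured 17.5, 17.9 and 23.7 CPM at 50%, against 33.9, 35.6 and 30.5 CPM at 0% (log2 fold change -0.75 ± 0.16 SE, limma adjusted p = 0.00012). In both species the 50% and 0% pools did not overlap, and they lay on opposite sides of each other. In An. coluzzii the means from 10 to 40% lay between 33.1 ± 3.72 and 41.7 ± 6.72 CPM (SD, n = 3). The only call against 0% made there was at 30% with each species fitted alone (0.32, higher). The call in An. merus at 40% (0.50 ± 0.16 SE) was lost without replicate B at 0% (0.30) or B at 40% (0.27).

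SRPN4 fell in An. coluzzii. Its pools there measured 133, 105 and 133 CPM at 50%, against 216, 249.7 and 328 CPM at 0%, and the log2 fold change was -1.08 ± 0.14 (SE, limma adjusted p = 1.2e-07). The means in that species were 265 ± 57.3, 251 ± 18.3, 234 ± 3.51, 189 ± 12.7, 158 ± 13.3 and 124 ± 16.3 CPM at 0, 10, 20, 30, 40 and 50% (SD, n = 3), each below the one before, and calls were made at 30, 40 and 50%. The 30% call (-0.47 ± 0.14 SE) was lost without replicate D at 0% (-0.30). In An. merus the mean of SRPN4 was 222 ± 10.0 CPM at 50% beside 255 ± 45.5 CPM at 0% (SD, n = 3), and its log2 fold change of -0.18 ± 0.14 (SE, 95% interval -0.47 to 0.10) was not called. It was called, as lower, with quantile normalization (-0.37), with library totals as the scaling (-0.32) and without replicate B at 0% (-0.34).

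In the main fit, no called change of SRPN3 against 0% was beyond 0.58 log2 units. Among the alternatives, called changes reached -0.71 in An. merus at 40%, without replicate B at 0%, and -0.72 in An. coluzzii at 50%. In An. merus its pools measured 53.7, 37.8 and 45.7 CPM at 0%, 32.1, 29.9 and 33.3 CPM at 30%, 28.7, 35.5 and 26.8 CPM at 40% and 36.3, 48.4 and 41.9 CPM at 50%. Against 0% it was lower at 40% (-0.58 ± 0.14 log2 units, SE, limma adjusted p = 0.0019) and at 30% (-0.50 ± 0.14 SE, limma adjusted p = 0.013, lost without replicate A at 0%, -0.38, or B at 30%, -0.46, and with each species fitted alone, -0.50), and at 50% the pools overlapped those at 0% (-0.11 ± 0.14 SE). In An. coluzzii its pools measured 30.4, 27.2 and 29.4 CPM at 50%, against 33.2, 39.7 and 45.0 CPM at 0% (-0.42 ± 0.14 log2 units, SE, limma adjusted p = 0.010, lost without replicate D at 0%, -0.32).

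Scaling bears on these directions. Under scaling by library totals instead of the deposited factors, the median over all genes shifted by -0.13 log2 units for An. merus at 50%, and for An. coluzzii by -0.16 at 30% and by -0.28 at both 40 and 50%. For 50% against 40% in An. merus the shift was -0.15, for 40% against 30% in An. coluzzii -0.12, and for the difference in response between the species 0.19, 0.31 and 0.15 at 30, 40 and 50%. Changes given here are relative to such shifts. The 8 serpins called at 50% in each species kept their calls and directions with that scaling. In An. coluzzii at 50%, SRPN1 (-0.31) and SRPN6 (-0.52) were called lower as well, and at 40% SRPN3, with a log2 change of 0.03 as deposited, was called lower (-0.27). At 30% in that species SRPN3 was also called lower with library totals (-0.34).

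Calls over the last step of salinity, 50% against 40%, differed between the species, though that difference itself was not tested. In An. merus 5 serpins rose over it (SRPN1, SRPN3, SRPN5, SRPN6 and SRPN10) and 1 fell (SRPN7), where 44.8% of all genes were called, 19.4% higher and 25.4% lower. In An. coluzzii 0 rose and 6 fell (SRPN1, SRPN3, SRPN4, SRPN6, SRPN9 and SRPN10), where 43.3% of all genes were called, 21.6% higher and 21.8% lower. The median log2 change over this step among the serpins was 0.27 for An. merus and -0.37 for An. coluzzii, and 0.02 and 0.03 for all genes. SRPN6 had the largest change in both species, 1.80 ± 0.23 in An. merus (SE, limma adjusted p = 6.1e-07) and -1.89 ± 0.23 in An. coluzzii (SE, limma adjusted p = 2.6e-07). SRPN10 changed by 0.60 ± 0.11 in An. merus (SE, limma adjusted p = 4.0e-05) and by -0.94 ± 0.11 in An. coluzzii (SE, limma adjusted p = 5.9e-08), and SRPN9 by -0.74 ± 0.16 in An. coluzzii (SE, limma adjusted p = 0.00037).

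Several calls over this step rested on single libraries. In An. merus the call was lost for SRPN3 (0.47) without replicate B at 50% (0.37) or C at 40% (0.39), for SRPN5 (0.44) without replicate A at 40% (0.41) or with library totals as the scaling (0.28), and for SRPN7 (-0.95) without replicate B at 40% (-0.74) or C at 50% (-0.79). Further falls were called in An. merus for SRPN8 with library totals as the scaling (-0.33) and for SRPN4 with quantile normalization (-0.30). In An. coluzzii the count of falls was 3 without replicate B at 40%. The call was lost for SRPN1 (-0.38) without that library (-0.29) or replicate A (-0.39), B (-0.37) or C (-0.39) at 50%, and for SRPN3 (-0.45) without that library (-0.39). It was lost for SRPN4 (-0.36) without replicate B (-0.30) or C (-0.37) at 40% or B at 50% (-0.25), and with quantile normalization (-0.26). The 0 rises in An. coluzzii were also 0 at an unadjusted limma p under 0.05 and with edgeR and DESeq2. SRPN8 (0.24 ± 0.12 SE) was called, as higher, with library totals as the scaling (0.24) and without replicate B at 50% (0.35). A fall of SRPN5 was called in An. coluzzii with quantile normalization (-0.35).

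**Figure D3:**
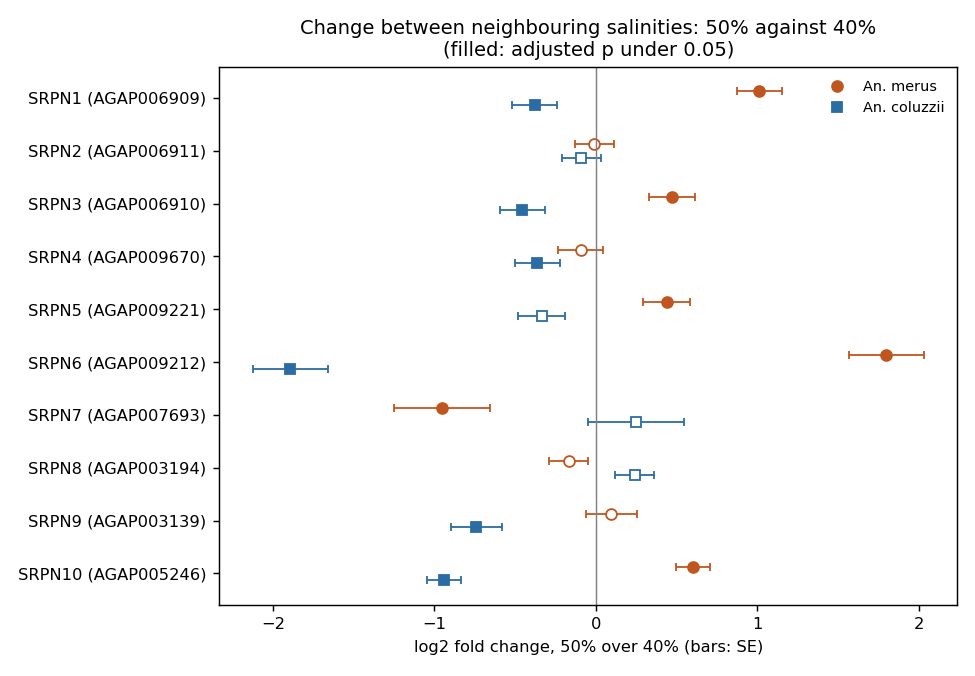
Log2 fold change of each serpin over the step to 50% from 40% salinity, An. merus as orange circles and An. coluzzii as blue squares, with SE bars and filled symbols where the limma adjusted p is under 0.05. SRPN6 lies at 1.80 in An. merus and at -1.89 in An. coluzzii.

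The step before, 40% against 30%, called 2 serpins in each species, beside 1.81% (An. merus) and 40.3% (An. coluzzii) of all genes. In An. coluzzii SRPN5 fell (-1.45 ± 0.15 SE, limma adjusted p = 6.8e-09) and SRPN10 rose (0.82 ± 0.11 SE, limma adjusted p = 5.2e-07). SRPN4 was called lower there with quantile normalization (-0.33) and with library totals as the scaling (-0.38). SRPN9 was called lower with library totals (-0.46) and with each species fitted alone (-0.33). In An. merus SRPN5 rose (0.57 ± 0.15 SE, limma adjusted p = 0.034) and SRPN8 fell (-0.60 ± 0.12 SE, limma adjusted p = 0.0090). The largest change there, that of SRPN7 (-0.93), was not called. Among the An. merus calls, that for SRPN5 was lost without any of the 6 libraries compared (0.53 to 0.60) and under scaling by library totals (0.58), and that for SRPN8 without replicate C at 40% (-0.53) and in a fit of An. merus alone (-0.60).

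At 0% salinity, 4 of 10 serpins were called between An. merus and An. coluzzii, where 43.5% of all genes were called. SRPN1 was higher in An. merus, 58.0 ± 10.8 CPM against 39.0 ± 7.03 CPM in An. coluzzii (SD, n = 3 each), 0.56 ± 0.14 log2 units apart (SE, limma adjusted p = 0.0017). SRPN7 (0.75 ± 0.30 SE, limma adjusted p = 0.041) and SRPN6 (0.58 ± 0.23 SE, limma adjusted p = 0.044) were also called higher and SRPN5 lower (-0.36 ± 0.15 SE, limma adjusted p = 0.044). Pools of the species overlapped for SRPN1, SRPN6 and SRPN7, and did not for SRPN5. The count was 1 without An. merus replicate A and 2 without An. merus replicate C or An. coluzzii replicate A or B. SRPN7 lost its call without An. merus replicate A (0.67) or C (0.71) or An. coluzzii replicate A (0.63) or B (0.44), with edgeR (0.62) and with DESeq2 (0.59). SRPN6 lost it without An. merus replicate A (0.65) or C (0.28) or An. coluzzii replicate A (0.54) or D (0.43), and with library totals as the scaling (0.51). SRPN5 lost it without An. merus replicate A (-0.35) or B (-0.32) or An. coluzzii replicate B (-0.23), and with quantile normalization (-0.29). SRPN2, not called in the main fit, was called higher in An. merus without An. merus replicate B (0.42). At 0%, unequal read alignment between the species and unequal expression cannot be told apart.

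Whether the species responded differently was tested as the change from 0% in An. merus minus that in An. coluzzii, a measure in which any constant ratio between the species drops out. Over all 5 salinities together, 9 of 10 serpins responded differently (moderated F test, limma), where 71.9% of all genes did. SRPN2 was the exception (limma adjusted p = 0.23), and it was called with quantile normalization and with library totals as the scaling. The strongest differences were those of SRPN5 (limma adjusted p = 2.0e-12), SRPN6 (1.3e-09) and SRPN10 (6.0e-09).

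At 50%, 5 serpins had the higher response in An. merus and 1 the lower, where 54.9% of all genes were called, 25.6% higher and 29.3% lower. SRPN5 differed most, by 2.36 ± 0.21 (SE, limma adjusted p = 3.4e-10), followed by SRPN6 at 1.81 ± 0.33 (limma adjusted p = 3.7e-05), SRPN9 at 1.35 ± 0.22 (limma adjusted p = 9.6e-06), SRPN1 at 1.09 ± 0.20 (limma adjusted p = 3.8e-05) and SRPN4 at 0.90 ± 0.20 (limma adjusted p = 0.00034). These 5 were called in every alternative run and without any single library. SRPN8 was lower (-0.43 ± 0.17 SE, limma adjusted p = 0.036), with the call lost under library totals as the scaling (-0.27) and without any of 7 libraries (-0.43 to -0.26), namely An. merus 0% A and 50% A and B and An. coluzzii 0% A and B and 50% A and C. For SRPN7, which fell steeply in both species, the difference at 50% was -0.17 ± 0.42 (SE, 95% interval -1.03 to 0.69). For SRPN10 it was 0.32 ± 0.15 (SE, limma adjusted p = 0.071) and passed the threshold under quantile normalization (0.33), under library totals (0.48) and without An. merus 50% A (0.38), An. merus 0% C (0.44) or An. coluzzii 50% A (0.44). SRPN3 (0.31 ± 0.20 SE) was called under library totals alone (0.48).

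At 40% the difference was called for 6 serpins, 3 higher and 3 lower in An. merus, where 44.2% of all genes were called, 22.9% higher and 21.3% lower. SRPN6 (-1.88 ± 0.33 SE, limma adjusted p = 4.7e-05) and SRPN10 (-1.22 ± 0.15 SE, limma adjusted p = 2.5e-07) had the lower change in An. merus, and SRPN5 (1.59 ± 0.21 SE, limma adjusted p = 6.8e-07) and SRPN4 (0.63 ± 0.20 SE, limma adjusted p = 0.010) had the higher change there. The value for SRPN6 was thus negative at 40% and positive at 50%. SRPN7 (1.03 ± 0.42 SE) lost its call with a pseudocount of 2 (0.87), with quantile normalization (0.90) and without any of 8 libraries (0.59 to 1.08), namely An. merus 0% B and C and 40% A and B and An. coluzzii 0% D and 40% B, C and D. SRPN3 (-0.61 ± 0.20 SE) lost it without An. merus 0% A (-0.49) or An. coluzzii 0% A (-0.50) and with library totals as the scaling (-0.28). SRPN9 (0.51 ± 0.22 SE, limma adjusted p = 0.061) was not called, but was with DESeq2 (0.56), under scaling by library totals (0.84) and without An. merus 0% A (0.64) or C (0.59), An. merus 40% A (0.63) or C (0.62) or An. coluzzii 40% B (0.60).

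At 30% the difference was called for 4 serpins, where 18.9% of all genes were called, 9.39% higher and 9.54% lower. It was positive for SRPN7 (1.71 ± 0.42 SE, limma adjusted p = 0.0050) and SRPN8 (0.58 ± 0.17 SE, limma adjusted p = 0.019, lost without An. merus 0% B, 0.44), which had fallen further in An. coluzzii. It was negative for SRPN6 (-1.53 ± 0.33 SE, limma adjusted p = 0.0017) and SRPN10 (-0.65 ± 0.15 SE, limma adjusted p = 0.0027), which were called higher than at 0% in An. coluzzii and not called in An. merus. SRPN4 (0.44 ± 0.20 SE) was called with quantile normalization (0.59), under scaling by library totals (0.63) and without An. coluzzii 0% A (0.57), and SRPN5 (-0.43 ± 0.21 SE) without An. coluzzii 30% C (-0.63).

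**Figure D4:**
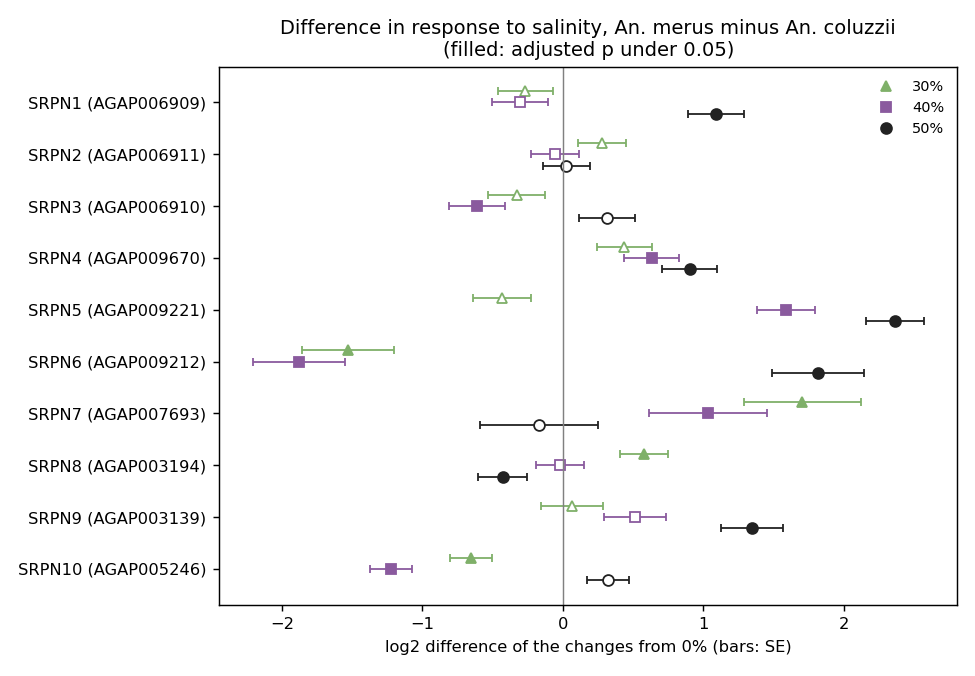
Difference in response, the log2 change from 0% in An. merus minus that in An. coluzzii, for each serpin at 30% (green triangles), 40% (purple squares) and 50% (black circles), with SE bars and filled symbols where the limma adjusted p is under 0.05. SRPN6 lies at -1.53 and -1.88 at 30 and 40% and at 1.81 at 50%, and SRPN5 reaches 2.36 at 50%.

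The profiles of some serpins ran close together over the 12 group means of log2 CPM, given here as a description, since the means share the species contrast and the salinity series. SRPN2 and SRPN7 correlated at 0.925 and SRPN2 and SRPN8 at 0.874, while SRPN7 and SRPN10 ran opposite at -0.914. Outside the serpin list, the gene most like SRPN7 was AGAP002098 (Pearson's r 0.992) and that most like SRPN8 was AGAP000670 (0.992). Also outside the list, the gene most like SRPN4 was AGAP003418 (0.989) and that most like SRPN9 was AGAP008059 (0.984). What these genes do is not annotated in the sources used here.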

How the data were processed

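RNA was sequenced from 36 pools of whole larvae, 3 in each of 12 groups by species and salinity. The authors deposited 1 table of read counts per gene, scaled to CPM with a size factor per library, so that the values are a normalized signal. The submitters' processing notes name Trimmomatic, Bowtie2, TopHat2, HTSeq and edgeR. Versions, genome build and annotation: not given in the sources used here. Whole reads were recovered from the deposited signal, with 100% of values whole within 0.001 in every library, and their sums give the depths. 1 An. coluzzii library at 50% was sequenced in 5 lane parts and its column is named for one of them.

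Tests used limma 3.58.1 in R 4.3.3 on log2(CPM + 0.5), with 12 group means over all 36 libraries, a trended prior and Benjamini-Hochberg adjustment over 10905 genes in each comparison. The threshold was an adjusted p of 0.05. The alternatives were pseudocounts of 0.1 and 2, a minimum mean of 5 CPM, quantile normalization, library totals as the scaling, a replicate block, each species fitted alone, leaving out each library, and edgeR 4.0.16 and DESeq2 1.42.0 on the recovered reads. edgeR called 7440 genes for An. merus at 50% against 0%, and 7466 for An. coluzzii. Figures were drawn with matplotlib 3.10.9.

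All 10 members are named in the text, and for likeness the gene with the highest Pearson's r over the 12 group means, given for the 4 highest. The members and lists were chosen with earlier results of these data known. A list of melanization genes was not used, because nothing used here annotates its identifiers. No sequences or coordinates are given for the same reason. Within each group no 2 libraries agreed within sampling noise, so none was taken as a copy of another and each was kept as 1 sample. This check cannot tell pools of separate cultures from pools of 1 culture.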

Additional observations from a re-analysis of the deposited data

Results flagged for a closer look

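The results below were picked out because the change from 0% differed between An. merus and An. coluzzii in a test of the difference itself (limma, adjusted over all genes). Each value is the log2 change in An. merus minus that in An. coluzzii, so a positive one means the higher change in An. merus. At 30% the differences were -1.53 for SRPN6, 1.71 for SRPN7, 0.58 for SRPN8 and -0.65 for SRPN10. At 40% they were -0.61 for SRPN3, 0.63 for SRPN4, 1.59 for SRPN5, -1.88 for SRPN6, 1.03 for SRPN7 and -1.22 for SRPN10. At 50% they were 1.09 for SRPN1, 0.90 for SRPN4, 2.36 for SRPN5, 1.81 for SRPN6, -0.43 for SRPN8 and 1.35 for SRPN9. The 3 salinities share the 0% pools of each species, so the values for 1 gene are not independent of each other.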

How the results depend on the processing

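Across the alternatives that keep all libraries, 1599 results of single serpins stayed on their side of the threshold, 21 lost a call and 39 gained one. A result was counted anew for each alternative or library left out, so the same serpin and comparison enters these numbers repeatedly. Direction reversed in 1 of the results so counted, that of SRPN3 in An. coluzzii at 40% against 0%. It was not called in the main fit and was called lower with library totals as the scaling (-0.27). When 1 library was left out, 1526 stayed on their side, 72 lost a call and 22 gained one. Direction was compared only where 1 of the runs made a call, so uncalled values could change sign. The F tests, which have no direction, are among these results. Counts of serpins called moved past 1.5 times as follows, and the cause was not tested. In An. merus at 20% the count was 0, and 1 with the 5 CPM filter, quantile normalization, the replicate block and DESeq2. In An. merus at 30% it was 4, and 2 with each species fitted alone, and at 40% against 30% it was 2, and 1 with library totals and with each species alone. In An. coluzzii at 20% it was 2, and 4 with quantile normalization and DESeq2, and at 40% against 30% it was 2, and 4 with library totals. Without single libraries the counts against 0% in An. merus ranged from 0 to 1 at 10%, 0 to 3 at 20%, 0 to 4 at 30%, 6 to 7 at 40% and 8 to 9 at 50%, with 0 to 1 at 40% against 30% and 5 to 6 at 50% against 40%. In An. coluzzii they ranged from 0 to 5 at 20%, 7 to 8 at 40 and 50%, and 3 to 6 at 50% against 40%, with 0 at 10%, 7 at 30% and 2 at 40% against 30%. For the species at 0% the range was 1 to 4, and for the difference in response 3 to 5 at 30%, 5 to 7 at 40 and 50% and 9 over all salinities.

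Over all genes, the count in An. merus was 87 at 10% (52 with the species alone, 141 with DESeq2), 1283 at 20% (557 with the species alone) and 197 at 40% against 30% (77 with the species alone, 340 with DESeq2), and in An. coluzzii 6 at 10% (2 with the block, 1 with the species alone, 17 with DESeq2). Replicate letters were not taken to pair samples. Same-letter libraries correlated with a median of 0.078 over 81 pairs and a lowest value of -0.53, libraries with other letters with a median of -0.032, and 15 of 36 correlated best with their own letter. Under the replicate block the calls of SRPN1 (-0.32) and SRPN4 (-0.31) at 50% against 40% in An. coluzzii (4 falls in place of 6), of SRPN6 between species at 0% (0.45) and of SRPN8 in the difference at 50% (-0.40) were not made. The lowest count of any member was 54 reads, for SRPN5, above the 3-read floor of 0.114 to 0.348 CPM. Whether depth affected the calls was not tested.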
